A study of Mus musculus with 9 samples.

Results

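Unannotated transcribed loci are stretches of genome that gave RNA sequencing reads but belong to no gene of the annotation used. The deposited count table of this mouse series lists them under the name NewGene with a number, beside the annotated genes with Ensembl identifiers. A locus was included here when its counts summed over the 9 libraries reached 50, and 2265 of the 4735 NewGene loci (47.8%) did so. Of the others, 2252 held 1 to 49 counts and 218 held none. The loci were chosen by their summed counts, so the level of the loci is a description and supports nothing. At the threshold, 17 loci stood at exactly 50 summed counts and 19 at 51, while 16 stood just outside at 49 and 18 at 48.

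The cells were monocytes from the spleens of wild-type mice, a myeloid cell type of the blood and spleen that senses bacterial products and can become a macrophage. There were 3 groups of 3 libraries. Untreated cells received the solvent DMSO at 1 in 1000. A second group received lipopolysaccharide (LPS), a bacterial outer membrane component, at 40 ng/ml for 5 hours. In the third group, LPS priming was followed by octanal, an aldehyde odorant, at 20 µM for 18 hours. In the labels of single libraries the DMSO dilution counts up to 1 in 1001 and 1 in 1002, and the octanal time to 19 and 20 hours, and libraries of a group were treated as alike. The labels name DMSO for the untreated cells alone and do not give LPS cells the longer culture of the octanal cells, so octanal, solvent and time in culture cannot be told apart. Whether the replicates were separate animals or cultures is not stated, and p-values therefore reflect no more than the spread between these libraries.

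Loci of this kind are found when reads aligned to a genome are assembled into transcripts and those that overlap no known gene are kept. Such a set commonly mixes long noncoding RNAs, unannotated ends or exons of known genes, transcripts of repeats and pseudogenes, and pieces of a transcript that coverage did not join. In monocytes and macrophages, stimulation through Toll-like receptor 4, the receptor for LPS, is known to switch on noncoding transcripts beside protein-coding genes. The table gives no coordinates, strand or sequence for any of these loci, so their position is not reported here and their identity rests on their name, their counts and, for some, a gene symbol.

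Total counts were 29594291 to 38388421 per library. The marker genes of several cell types moved with LPS. Summed CPM (counts scaled to library depth) of 15 neutrophil markers was 14017 to 27272 in untreated libraries, 1896 to 2348 after LPS and 6112 to 13742 after LPS with octanal, and 14 of the 15 were called lower in LPS than in untreated libraries. The 10 classical monocyte markers summed to 7709 to 17797, 2153 to 3626 and 5783 to 8941 in the same order, with 7 of 10 lower. The 10 T cell markers in the table summed to 592 to 1369, 1872 to 2536 and 1231 to 1876, and all 10 were higher in LPS. Macrophage markers (7 of 11 lower) and eosinophil markers (5 of 6 lower) fell, and 3 of 8 NK cell markers rose. Dendritic cell markers summed to 275 to 501 CPM without treatment, 826 to 928 with LPS and 426 to 928 with both agents, and non-classical monocyte markers to 1245 to 1688, 720.2 to 855 and 762 to 864 CPM. At both lists the LPS and untreated libraries did not overlap, but single genes made up much of the sums. Ccr7 had a mean of 314 CPM in untreated and 819 CPM in LPS libraries, and Cd36 of 970 and 227 CPM. Spn, on the list of Cd36, went up from 131 to 280 CPM. Of 7 dendritic cell markers 1 was called higher and 1 lower in LPS, and of 7 non-classical monocyte markers 1 higher and 2 lower. Erythroid markers summed to 756 to 1567, 268 to 754 and 359.99 to 663 CPM, and B cell markers to 100.97 to 339, 140.2 to 191 and 77.1 to 105 CPM. No marker in the table was at 0 in every library. In bulk libraries fewer cells of a type and less RNA per cell cannot be told apart, and the part of these shifts in the changes of the loci was not tested.

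The unannotated loci together took a larger share of the library in LPS than in either other group. They held 7545323 of all 304985551 counts, or 2.47%, while all NewGene loci together held 2.49%. In untreated replicates 1, 2 and 3 their share was 1.38%, 2.23% and 1.83%. It was 4.14%, 2.98% and 3.07% in the LPS replicates, and octanal after LPS gave 2.39%, 2.07% and 2.17%. Each LPS library lay above every library of the other groups, while untreated replicate 2 lay within the range of LPS with octanal. The mean share was 1.81 ± 0.425% in untreated libraries, 3.40 ± 0.645% with LPS and 2.21 ± 0.164% with LPS and octanal (SD, n = 3). The difference was 1.59 percentage points between LPS and untreated (1.88-fold, exact two-sided permutation p = 0.1, adjusted p = 0.15 over 3 comparisons). It was -1.19 points between LPS with octanal and LPS (0.649-fold, exact permutation p = 0.1, adjusted 0.15) and 0.396 points between LPS with octanal and untreated (1.22-fold, exact permutation p = 0.3, adjusted 0.3). With 3 libraries against 3 the exact test cannot go below 0.1. Mitochondrial transcripts took 2.85 ± 0.987%, 5.36 ± 1.99% and 2.82 ± 0.443% of the counts without treatment, with LPS and with both agents. With mitochondrial genes left out of the library totals, the share of the loci differed by 1.72 points between LPS and untreated. It then differed by -1.32 points between LPS with octanal and LPS, and by 0.404 points between LPS with octanal and untreated. The part of mitochondrial transcripts in the shares was not tested further.

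**Figure D1:**
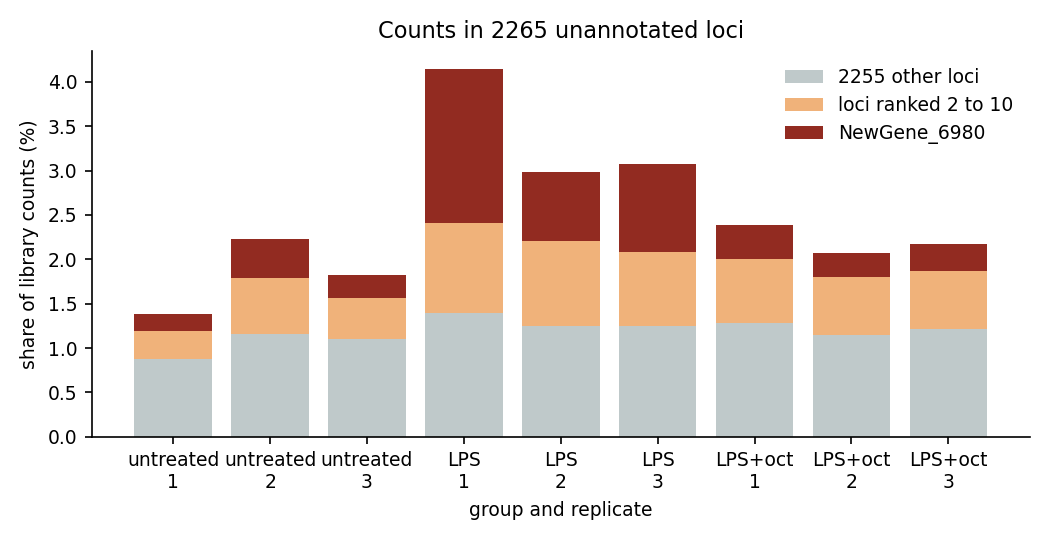
Share of each library's counts (percent, bars stacked from 0) that fell in the unannotated loci, with 3 libraries each for untreated, LPS and LPS with octanal. The locus of highest count, the loci ranked 2 to 10 and the other loci are drawn apart. The 3 LPS bars reach 2.98% to 4.14% and the other 6 bars 1.38% to 2.39%.

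Much of that difference lay in a few loci. The locus of highest count held 24.3% of all counts in unannotated loci, the first 10 held 52.2% and the first 100 held 79.1%, and 291 loci held 90% of them. Without the first locus the mean shares were 1.51%, 2.23% and 1.89% without treatment, with LPS and with both agents, and the difference between LPS and untreated was 0.716 points (exact permutation p = 0.1, adjusted 0.1). Without the first 10 the means were 1.05 ± 0.152%, 1.30 ± 0.0848% and 1.22 ± 0.0708% (SD, n = 3). The difference between LPS and untreated was then 0.252 points (exact permutation p = 0.1, adjusted 0.3), and that between LPS with octanal and LPS was -0.0824 points with overlapping groups (exact permutation p = 0.4, adjusted 0.4). The typical locus was rare. The median locus had 239 summed counts and a mean of 0.785 CPM, against 24.0 CPM for the Ensembl genes tested. Mean CPM was between 0.1 and 1 at 1276 loci, between 1 and 10 at 752, between 10 and 100 at 209 and at least 100 at 28. Most were nevertheless widespread: 1692 had a count in all 9 libraries, and only 20, 18 and 7 had none in any untreated, LPS or LPS with octanal library.

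The most abundant locus, NewGene_6980, carried no gene symbol. Its level was 1889, 4261 and 2903 CPM in the untreated replicates, 16281, 7619.9 and 9474 CPM in the LPS replicates and 3791, 2706 and 3194 CPM in the LPS with octanal replicates. Every LPS library lay above all the others, and the untreated and LPS with octanal libraries overlapped. The locus rose in LPS against untreated by a log2 fold change of 1.88 (SE 0.39, edgeR quasi-likelihood adjusted p = 0.0086), and it was called with each library left out in turn (1.48 to 2.18). Against LPS, the LPS with octanal value was -1.78 (SE 0.39, adjusted p = 0.062), which missed the threshold of 0.05, and against untreated it was 0.10 (adjusted p = 0.89). It took 1.73% of all counts of LPS replicate 1, where it was the most counted entry of the whole table, and it ranked 10 and 3 in the other LPS replicates. In untreated replicates it ranked 27, 11 and 17, and in LPS with octanal replicates 8, 19 and 16. Per length it was also the highest unannotated locus, at a mean of 1106 FPKM (fragments scaled per length and depth), ahead of NewGene_1141 at 433 and NewGene_3960 at 319 FPKM.

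NewGene_3960 and NewGene_8842 were also higher in LPS, with wide untreated groups. NewGene_3960 stood at 143, 1029 and 818 CPM in untreated, 4600.4, 2204 and 2733 CPM in LPS and 2653, 1709 and 1642 CPM in LPS with octanal replicates. NewGene_8842 stood at 16.7, 328 and 118 CPM, then 977, 951 and 767 CPM, then 498, 362 and 396 CPM. At both loci the LPS libraries lay above all untreated ones, and untreated replicate 1 was the lowest library. NewGene_3960 rose by 2.26 (log2, SE 0.63, edgeR adjusted p = 0.025), but it missed the threshold without LPS replicate 1 (adjusted p = 0.086), LPS replicate 3 or untreated replicate 3 (both 0.053). NewGene_8842 rose by 2.54 (SE 0.79, adjusted p = 0.037) and kept that call only without untreated replicate 1 (0.012) or untreated replicate 2 (0.0073); without each of the other 7 libraries its adjusted p was 0.051 to 0.10. LPS with octanal against untreated gave 1.59 for NewGene_3960 (adjusted p = 0.14), with no overlap between the groups.

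NewGene_1141 went the other way. It stood at 1795, 1848 and 1801 CPM in untreated, 865, 938 and 877 CPM in LPS and 1685, 1185 and 1872 CPM in LPS with octanal replicates. The untreated libraries lay close together, as did the LPS libraries, and these groups did not overlap. It fell by 1.02 on the log2 scale (SE 0.18, edgeR adjusted p = 0.0047) and was called with each library left out. LPS with octanal lay 0.82 above LPS (adjusted p = 0.063).

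The 2 remaining loci of the highest 6 gave no call. NewGene_1122 read 260, 782 and 1041 CPM in untreated, 48.4, 2639 and 1476 CPM in LPS and 44.5, 1882 and 947 CPM in LPS with octanal replicates. It was low in replicate 1 of every group and high in the other replicates of both treated groups, and its log2 fold change of 1.00 in LPS had an SE of 1.32 (edgeR adjusted p = 0.59). NewGene_7589 read 566, 1163 and 375 CPM, then 763, 868 and 715 CPM, then 433, 321 and 412 CPM. Its log2 fold change in LPS was 0.16 (adjusted p = 0.76). Without untreated replicate 2, its highest library, it was 0.71 (adjusted p = 0.029), and without untreated replicate 3 it turned to -0.15 (adjusted p = 0.72).

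**Figure D2:**
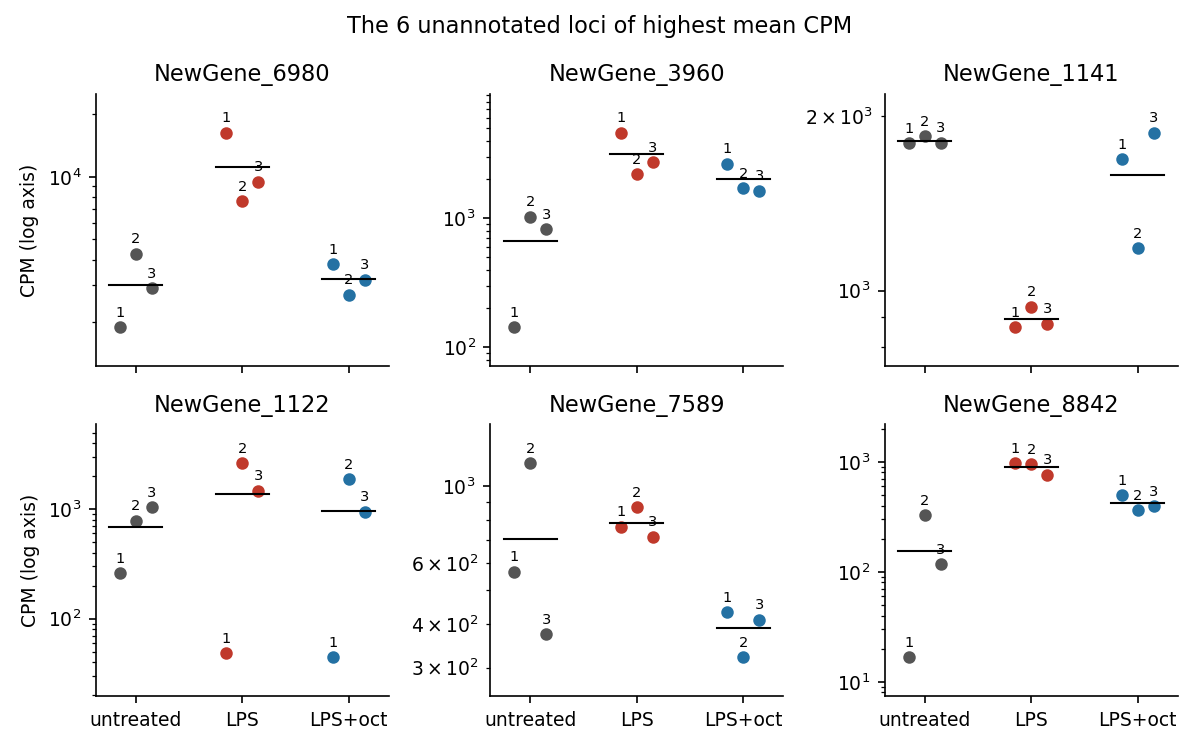
CPM (log axis) of the 6 unannotated loci of highest mean level in each of the 9 libraries, one panel per locus and one point per library numbered by replicate, with a bar at the group mean. NewGene_6980 lies between 7619.9 and 16281 CPM in LPS and at 4261 CPM or less elsewhere, while NewGene_1122 spreads from 44.5 to 2639 CPM.

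For LPS against untreated, the question is which loci responded to 5 hours of a bacterial product. Of the 2265 loci, 1993 passed the filter on low counts and were tested, and these held 99.7% of the counts in unannotated loci. A locus counted in a single group can pass through that group, so the counts below describe the loci that passed and not all 2265. Of them, 437 (21.9%) were called, 239 higher and 198 lower in LPS, against 32.8% of all 15447 entries tested (15.2% higher and 17.6% lower) and 34.4% of Ensembl genes. The median log2 fold change was 0.19 over the loci and 0.01 over all entries. A change of at least 2-fold was present in 391 of the 437 calls (89.5%), with 202 higher and 189 lower, against 44.7% of the calls of Ensembl genes. Over all entries tested, 16% were called with such a change. The loci were mostly of lower level than the genes, and the sizes of change were not compared at like level. Which direction held the majority depended on the libraries: 54.7% of the calls were higher, but 35.6% without LPS replicate 1, 39.4% without LPS replicate 2, 40.7% without LPS replicate 3 and 62.8% without untreated replicate 2. With a fit of the 6 libraries of this comparison alone it was 45.5%, with a replicate block 43.6%, and from FPKM 63.2%.

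The share called was larger among loci of higher level. Between 0.1 and 1 CPM, 14.0% of 1006 loci were called, against 9.37% of 1601 Ensembl genes at that level (3.19% higher and 6.18% lower). Between 1 and 10 CPM it was 26.0% of 750 loci (13.6% higher and 12.4% lower) against 28% of 2996 genes (9.08% and 18.9%). At 10 CPM or more it was 42.6% of 237 loci against 41.2% of 8853 genes. In this highest band 28.3% of the loci were called higher and 14.3% lower, while genes split into 20.2% and 20.9%. Of the 28 loci of at least 100 CPM, 12 were called higher and 2 lower, with a median log2 fold change of 0.52. Of 2434 Ensembl genes at that level, 24.1% were called higher and 24.7% lower, with a median of 0.00. At 10 CPM or more the share of loci called higher was above that of genes, and the share called lower below it, in the fit reported and in each alternative fit, with the loci called higher at 8.86% to 35.9%. No test was made of these differences between loci and genes.

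**Figure D3:**
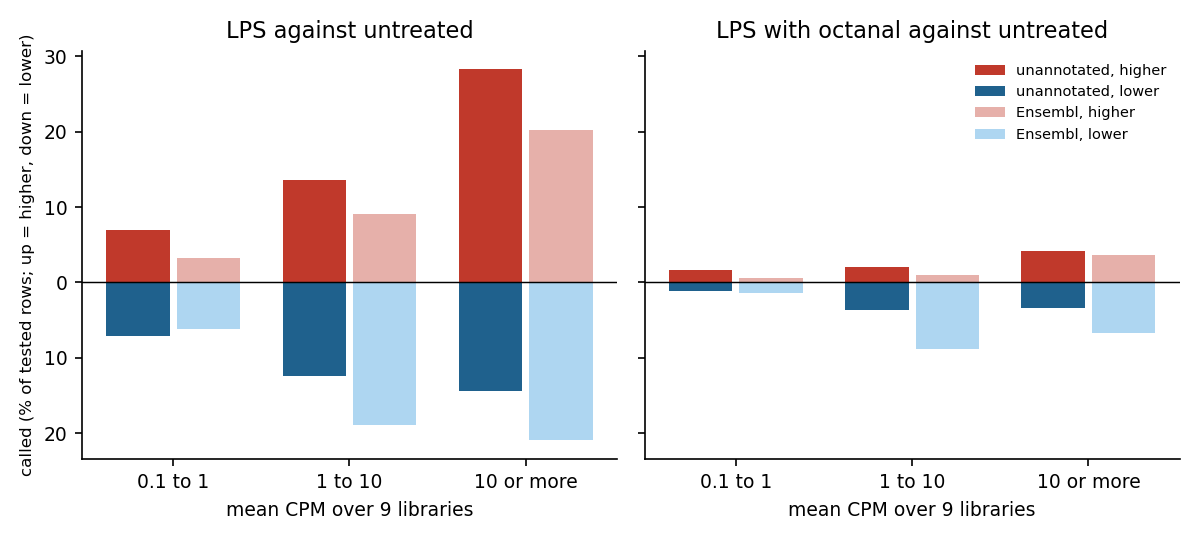
Percent of tested unannotated loci and of tested Ensembl genes called higher (above 0) or lower (below 0) at an adjusted p under 0.05, by band of mean CPM, for LPS against untreated and for LPS with octanal against untreated. In LPS, loci of 10 CPM or more were called higher in 28.3% and lower in 14.3% of cases.

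Some loci were found almost wholly in the presence or absence of LPS. NewGene_6938, which carries the predicted symbol LOC110298237, had no count in any untreated library, 0.232, 4.32 and 2.85 CPM in LPS and 3.83, 17.9 and 8.39 CPM in LPS with octanal libraries. Its 250 counts in LPS against 0 put it at least 74.8-fold higher, taking 3 counts over a group as the floor (edgeR adjusted p = 0.014). This limit was 45.8 without untreated replicate 1, 47.8 without LPS replicate 2 and 113 without LPS replicate 1. LPS replicate 1 held 9 of the 250 counts. Limits of this kind, here and below, cover counting error over pooled libraries and not the spread between libraries. NewGene_135 read 0, 0.229 and 0.142 CPM in untreated, 1.54, 3.01 and 2.90 CPM in LPS and 5.01, 4.62 and 4.31 CPM in LPS with octanal libraries. It rose by 4.35 on the log2 scale (SE 0.73, adjusted p = 0.0038), on 261 counts against 11. At both loci the untreated libraries were at or near 0 and did not overlap with either treated group.

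In the other direction, NewGene_6146 read 1.43, 0.557 and 2.27 CPM in untreated libraries, had no count in any LPS library, and read 0.115, 0.188 and 0.0988 CPM with octanal. Its 134 untreated counts against 0 made it at least 49.8-fold lower in LPS (edgeR adjusted p = 0.0026), with a limit of 31.7 without LPS replicate 1 and 33.0 without LPS replicate 3. NewGene_5004 read 1.40, 0.360 and 1.81 CPM in untreated and 0 in all LPS libraries, and was at least 42.4-fold lower (adjusted p = 0.015), with a limit of 26.96 without LPS replicate 1 and 28.0 without LPS replicate 3. All 3 untreated libraries held counts at both loci, and replicate 2 was the lowest of them. These 4 loci were picked as the largest changes, and NewGene_6146 and NewGene_5004 passed the filter on low counts through the untreated group alone, so their p-values describe the fit and support nothing further.

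**Figure D4:**
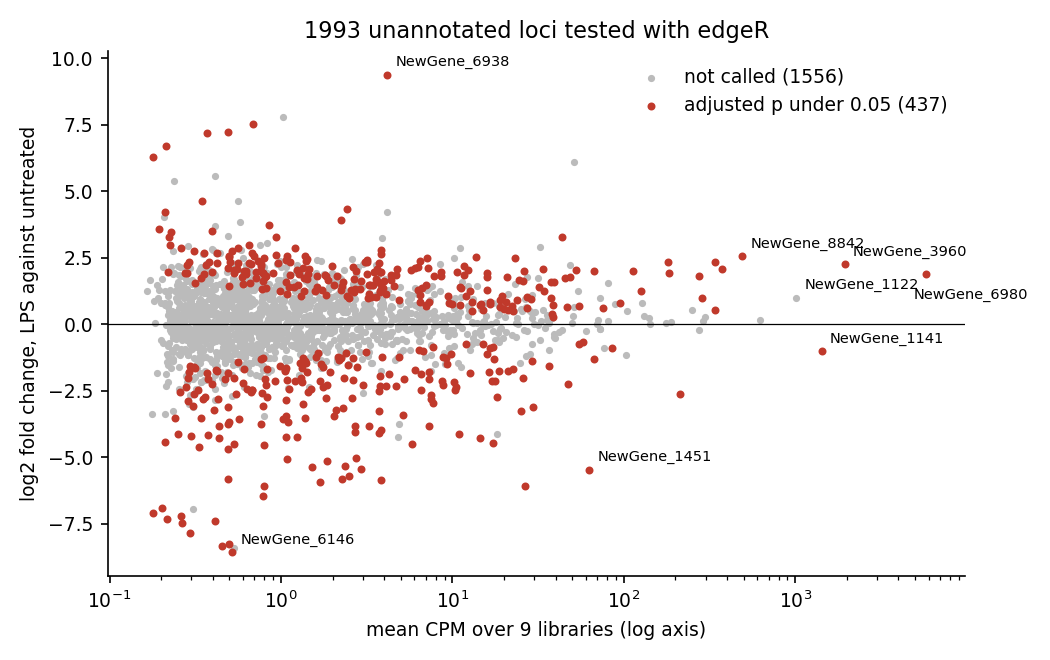
Log2 fold change of LPS against untreated over the mean CPM of 9 libraries (log axis) for the 1993 tested unannotated loci, with the 437 called loci in red and the others in grey. The most extreme folds come from loci with few or no counts in one group and are no measure of size; NewGene_6980 is the rightmost point.

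For LPS with octanal against LPS, the comparison of octanal on primed cells, no locus was called by edgeR, as was true of every entry of the table (0% of 15447). The lowest adjusted p was 0.051, shared by 47 entries, of which NewGene_2442 and NewGene_1451 were unannotated loci. At an unadjusted p under 0.05 there were 276 loci (13.8%), 170 higher and 106 lower, against 22.3% of all entries (13.6% higher and 8.69% lower) and 23.6% of Ensembl genes (14.4% and 9.19%). The median log2 fold change was -0.08 over the loci and -0.05 over all entries. DESeq2 called 114 of 1170 loci (9.74%) against 12.1% of all entries it tested, and edgeR on the 6 libraries alone 77 of 1788 (4.31%) against 9.27%. On FPKM, limma called no locus and no other entry.

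NewGene_1451 read 156, 105 and 205 CPM in untreated, 3.88, 3.23 and 3.38 CPM in LPS and 30.5, 11.7 and 47.1 CPM in LPS with octanal libraries. NewGene_2442 read 7.13, 4.16 and 6.76 CPM, then 0.129, 0.125 and 0.0830 CPM, then 0.892, 0.886 and 2.14 CPM. At both loci the LPS with octanal libraries lay above all LPS and below all untreated ones, without overlap. The log2 difference from LPS was 3.09 (SE 0.47) for NewGene_1451 and 3.49 (SE 0.50) for NewGene_2442, each at an edgeR adjusted p of 0.051. NewGene_1451 fell by 5.47 in LPS against untreated (adjusted p = 6.3e-04).

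Of the loci lower with octanal, NewGene_4072 read 6.46, 6.19 and 6.94 CPM in untreated, 4.45, 6.17 and 3.13 CPM in LPS and 0.489, 1.42 and 1.35 CPM in LPS with octanal libraries. Its log2 difference from LPS was -2.07 (SE 0.41, edgeR adjusted p = 0.058), and the LPS with octanal libraries were the lowest 3 of the 9. NewGene_7491 read 4.25, 0.131 and 10.3 CPM, then 6.61, 8.80 and 3.597 CPM, then 0.0575, 0 and 0 CPM. It had 2 counts with octanal against 668 in LPS, a ratio of 320 (95% counting interval 88.2 to 2645, adjusted p = 0.058). NewGene_7491 passed the filter on low counts through the LPS and untreated groups, so this p-value describes the fit and supports nothing further.

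LPS with octanal against untreated compares cells that received both agents with cells that received neither. It called 87 of 1993 loci (4.37%), 41 higher and 46 lower, against 8.67% of all entries (2.63% higher and 6.03% lower) and 9.31% of Ensembl genes. The median log2 fold change was 0.12 over the loci and -0.01 over all entries. A change of at least 2-fold was present in 82 of the 87 calls (94.3%). The like share was 63.2% of the calls over all entries and 61.0% of the calls of Ensembl genes. Over all entries tested, 5.48% were called with such a change. The sizes of change were not compared at like level. At 10 CPM or more, 7.59% of loci were called (4.22% higher and 3.38% lower) against 10.4% of genes (3.68% and 6.75%). Between 1 and 10 CPM these shares were 5.6% of loci and 9.85% of genes, with 8.85% of genes but 3.6% of loci lower. Leaving out untreated replicate 2 raised the count of called loci to 177 (8.37% of loci, against 13.5% of all entries tested). It was 38 without untreated replicate 1 (1.80% against 3.95%) and 49 without LPS replicate 3 (2.33% against 4.98%). Without LPS with octanal replicates 1, 2 and 3 it was 45, 22 and 52. These were 2.13%, 1.04% and 2.43% of loci, against 4.97%, 1.88% and 4.21% of all entries.

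Among the loci above, NewGene_6938 was at least 330-fold higher than in untreated libraries, on 1056 counts against 0 (edgeR adjusted p = 0.018). Without LPS with octanal replicate 2, which held most of these counts, the limit was 191 and the call was lost (adjusted p = 0.055), and without untreated replicate 1 the limit was 202 and the call was lost as well (0.051). NewGene_7174 had no untreated count, read 0.978, 0 and 1.02 CPM in LPS and 1.06, 1.45 and 1.65 CPM in LPS with octanal libraries, and was at least 44.1-fold higher (adjusted p = 0.043; limit 26.99 without untreated replicate 1). That call is fragile: it was lost in 8 of 9 fits without 1 library, all but the one without LPS replicate 2, at adjusted p of 0.053 to 0.12, and with a replicate block (0.089). NewGene_121 read 14.1, 7.50 and 10.4 CPM in untreated, 0.206, 0.282 and 0.0553 CPM in LPS and 0.633, 0.134 and 1.12 CPM in LPS with octanal libraries. It fell by 4.10 (SE 0.69, adjusted p = 0.012), with no treated library near an untreated one. NewGene_7491 had 2 counts against 454, a ratio of 242 (95% counting interval 66.7 to 2006, adjusted p = 0.025), and its call was lost from FPKM (0.074), with a replicate block (0.064) and without LPS with octanal replicate 1 (0.077), 2 (0.10) or 3 (0.075) or untreated replicate 1 (0.054). These loci were picked as the largest changes of this comparison. NewGene_6938 and NewGene_7174 passed the filter on low counts through treated libraries alone. NewGene_121 passed mainly through the untreated group, and NewGene_7491 through the LPS and untreated groups. The p-values of these loci, and the calls kept or lost, therefore describe the fit and support nothing further.

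The table gives 322 of the loci (14.2%) a gene symbol, in a column whose making is not given in the sources used here. These 322 loci held 12.9% of the counts in unannotated loci and shared 288 distinct symbols, and 46 of them had a predicted symbol that starts with LOC. A symbol does not show that the locus is that gene. Loci with a symbol were called in LPS about as often as those without, 68 of 302 tested (22.5%) against 369 of 1691 (21.8%). Of the 10 loci with a symbol that were highest in CPM, 3 were called in LPS. All 10 lay above 10 CPM, where 42.6% of tested loci and 41.2% of Ensembl genes were called.

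NewGene_5529 (LOC115067164) read 33.5, 172 and 79.9 CPM in untreated, 884, 397 and 151 CPM in LPS and 635, 214 and 514 CPM in LPS with octanal libraries. LPS replicate 3 lay below untreated replicate 2, and the rise of 2.33 (log2, edgeR adjusted p = 0.042) missed the threshold in 6 of 9 fits without 1 library (those without LPS replicates 1 and 2, LPS with octanal replicates 1 and 3 and untreated replicates 1 and 3; highest adjusted p 0.16). NewGene_5101 (2610005L07Rik) read 278, 272 and 246 CPM, then 324, 409.7 and 411 CPM, then 294, 430.3 and 400.1 CPM. It rose by 0.52 (adjusted p = 0.036), without overlap between LPS and untreated, but kept the call in a single one of the 9 fits, that without LPS with octanal replicate 1. NewGene_5102, which bears the same symbol, gave 0.53 (adjusted p = 0.053).

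NewGene_4621 carries the symbol of Pgam1, a phosphoglycerate mutase of glycolysis. It read 119.8, 77.7 and 115 CPM in untreated, 41.5, 60.0 and 68.4 CPM in LPS and 94.3, 90.04 and 106 CPM in LPS with octanal libraries. The LPS libraries were the lowest 3, and the locus fell by 0.88 (log2, edgeR adjusted p = 0.015) and was called with each library left out. The other loci among these 10 carried Hnrnpa3 (0.32, adjusted p = 0.063), LOC117707911 (0.50, 0.062), LOC115031565 (0.74, 0.21), Ubb (0.11, 0.38), Tmem134 (0.16, 0.18) and Gon4l (adjusted p = 1.0) and gave no call in LPS.

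A symbol stood on 2 or more loci in 23 cases, which took in 57 loci. The 3 loci named LOC110312285 were all called higher in LPS: NewGene_2066 by 1.95, NewGene_1676 by 2.14 and NewGene_375 by 3.74 (log2, edgeR adjusted p = 0.0071, 0.014 and 0.019). NewGene_2066 held with each library left out, while NewGene_1676 missed the threshold without LPS replicate 3 (0.052) and NewGene_375 without LPS replicate 3 (0.061) or untreated replicate 1 (0.062). The 6 loci named E230008O15Rik had log2 fold changes of -0.51 to 1.49 and no call. Loci of a shared symbol can be copies or pieces of a single transcript, and reads may be shared between near-identical copies, so these levels are uncertain and the loci are not independent of each other.

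There were 119 loci with the symbol of an Ensembl gene in the same table, over 107 genes. Per length the locus lay below the gene in 97 of 119 pairs, with a median gene level of 14.0 times the locus in FPKM. Both were tested in 98 pairs over 91 genes. In LPS against untreated the locus and the gene had the same sign in 67 of 98 pairs (68.4%), with Pearson's r = 0.43 and Spearman's rho = 0.47 across pairs. The pairs share all libraries and some share a gene, so this is a description. For LPS with octanal against LPS the signs were alike in 62 of 98 (63.3%, r = 0.35) and for LPS with octanal against untreated in 64 of 98 (65.3%, r = 0.34).

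In LPS against untreated, 19 of the 98 loci and 34 of the genes beside them were called, shares near those over the whole table (21.9% of loci and 34.4% of Ensembl genes). Both were called in 11 pairs, each in the same direction. Hmgb2, a chromatin protein, had 2 such loci: NewGene_3195 fell by 1.76 and NewGene_3197 fell by 1.31, beside the gene, which fell by 1.49. NewGene_3195 read 39.9, 20.8 and 48.7 CPM in untreated and 10.7, 10.1 and 11.5 CPM in LPS libraries, without overlap. NewGene_4895 (Lamtor3, a scaffold of the lysosomal Ragulator complex) fell by 0.86 beside a gene that fell by 0.96. NewGene_4621 fell by 0.88 beside Pgam1, which fell by 0.89. NewGene_6830 (Frmd4a) fell by 1.58 beside a gene that fell by 1.26, and NewGene_5050 (Gpi1, the glucose-6-phosphate isomerase of glycolysis) fell by 1.22 beside a gene that fell by 0.84. The 4 pairs that rose were Pcif1 (locus 0.64, gene 0.33), Ube2h (0.71, 0.82), Arid4a (0.64, 0.75) and Unkl (0.76, 0.85). The loci of Pgam1 and Lamtor3 and NewGene_3195 kept their call in 9 of 9 fits without 1 library. Frmd4a kept it in 8 (not without LPS replicate 1), Arid4a in 6, NewGene_3197 in 5, Pcif1 in 3, Ube2h in 2 and Gpi1 and Unkl in 1.

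In 8 pairs the locus was called and the gene was not. NewGene_1792 bears the symbol of Bambi, a pseudoreceptor for TGF-beta family ligands. It read 9.33, 21.1 and 24.3 CPM in untreated, 75.9, 41.5 and 48.1 CPM in LPS and 35.8, 41.4 and 40.3 CPM in LPS with octanal libraries. All LPS libraries were above the untreated ones, and the locus rose by 1.60 (log2, edgeR adjusted p = 0.010). The gene Bambi read 1.56 to 2.61 CPM in untreated and 1.91 to 2.29 CPM in LPS libraries and changed by 0.09 (adjusted p = 0.85). Per length the locus, at 25.03 FPKM, was far above the gene, at 0.335 FPKM.

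NewGene_1286 bears the symbol of Il17rd, a receptor of the interleukin-17 receptor family. It read 1.16, 1.11 and 0.708 CPM in untreated, 0.129, 0.0939 and 0.0830 CPM in LPS and 0.201, 0.0537 and 0.132 CPM in LPS with octanal libraries. The locus fell by 3.24 (log2, edgeR adjusted p = 0.0044) with no overlap, while the gene gave 0.40 (adjusted p = 0.67). NewGene_1040, with the symbol of the ribosomal protein gene Rpl38, rose by 2.33 from 0.108 to 0.177 CPM in untreated to 0.669 to 0.752 CPM in LPS libraries, beside 0.47 for the gene (adjusted p = 0.076). These 3 loci kept their call with each library left out. However, NewGene_1286 passed the filter on low counts through the untreated group, and NewGene_1040 through LPS. For these 2 loci the p-values and kept calls describe the fit and support nothing further. The other 5 carried Cnbd2 (0.83), Gemin2 (-1.04), Ces2c (2.22), Alg12 (1.41) and Odc1 (1.65). The Ces2c locus read 0.0327 to 0.188 CPM in untreated and 0.360 to 0.626 CPM in LPS libraries. It passed the filter mainly through LPS, so its call and kept calls likewise describe the fit and support nothing further. Of the 9 fits without 1 library, Odc1 kept its call in 8 (not without LPS replicate 3), Cnbd2 in 5, Ces2c in 2 and Gemin2 and Alg12 in 1. That a locus passed and its gene did not is no test of a difference between them.

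**Figure D5:**
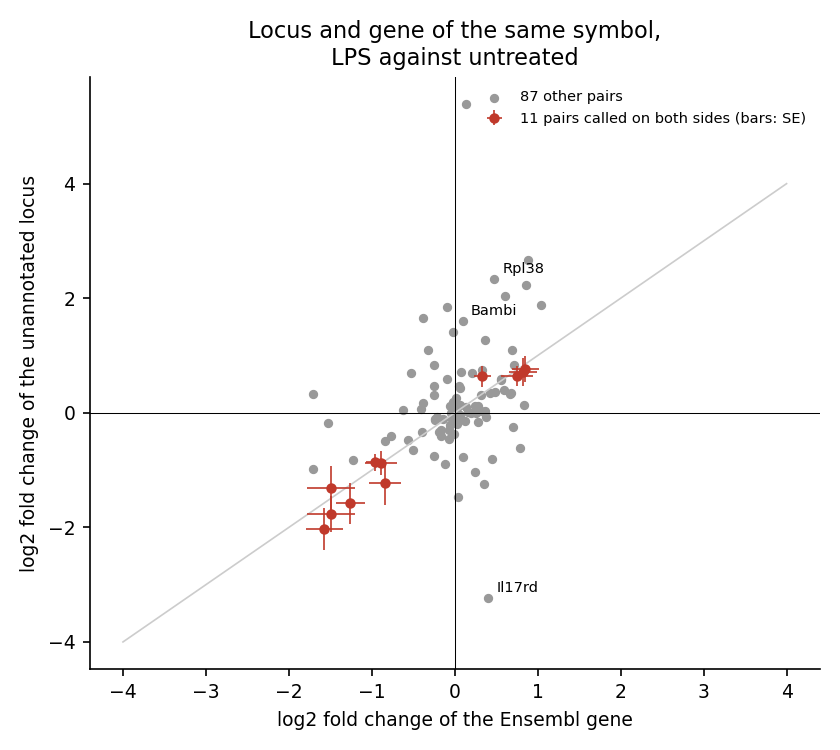
Log2 fold change of LPS against untreated for 98 pairs of an unannotated locus (vertical axis) and the Ensembl gene of the same symbol (horizontal axis), one point per pair, with the line of equality. The 11 pairs with both called are red with SE bars and the other 87 grey; the red ones lie in the lower left and upper right, and Bambi and Il17rd stand off the line.

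The numbers in the names of the loci ran up to 9086, and loci with adjacent numbers moved more alike than distant ones. Over 579 pairs of tested loci whose numbers differed by 1, the log2 fold change of LPS against untreated had the same sign in 407 pairs (70.3%), and the median difference in size was 0.69. At a difference of 2 the signs were alike in 59.7% of pairs, at 3 in 59.1%, at 10 in 55.3%, at 50 in 49.9% and at 200 in 50.1%, where the median difference was 1.27. Both loci were called in 53 of the adjacent pairs, and 49 of these had the same direction. Where both adjacent loci had a symbol, it was the same symbol in 4 of 24 pairs. No test was made of this pattern, and the table does not say how the numbers were given, so no position was read from them. Adjacent loci may be pieces of a single transcript, so counts of loci are not counts of independent transcripts.

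The loci were short beside annotated genes. A length was computed from each locus's count and FPKM, since FPKM divides a count by length and depth. It was the median over the libraries with at least 10 counts at the locus. For 2264 loci it had a median of 1531 bases, with quartiles of 923 and 2711 and a range from 260.1 to 40519, against a median of 3089 bases for Ensembl genes. Under 1000 bases were 28.0% of the loci and 5.62% of the genes. For Ensembl genes this length was 0.800 times the summed exon length of the GENCODE M21 annotation at the median (quartiles 0.584 and 0.996), so it is not an exact exon length. Libraries could also disagree on the length of a locus. NewGene_4798 (LOC115031565) had 1734 counts at 22.1 FPKM in untreated replicate 1, in a library of 38388421 counts. In untreated replicate 3, of 30594520 counts, it had 1230 counts at 8.01 FPKM. The lengths are therefore approximate. NewGene_8842, one of the 6 most abundant, was the longest at 40519 bases, followed by NewGene_1156 at 24339. NewGene_6980 was 5354 bases long by this measure.

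Replicates of a group differed more at loci of 1 CPM or more than at annotated genes of like level, but not at rarer ones. At 10 CPM or more, the median SD of log2 CPM between replicates was 0.50 in untreated libraries, 0.25 with LPS and 0.29 with LPS and octanal for the loci, against 0.22, 0.11 and 0.15 for Ensembl genes. Between 1 and 10 CPM they were 0.60, 0.37 and 0.43 for the loci and 0.45, 0.26 and 0.33 for the genes. Between 0.1 and 1 CPM the values were 0.72, 0.52 and 0.58 for the loci and 0.71, 0.52 and 0.62 for the genes. A range of at least 10-fold within a group, with 0.1 CPM added, was seen at 10, 8 and 6 of the 237 loci of 10 CPM or more (4.22%, 3.38% and 2.53%) without treatment, with LPS and with both agents. Among genes of that level it was seen at 28, 19 and 19 of 8853 (0.316%, 0.215% and 0.215%). The wide group of NewGene_1122 is of this kind.

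At the extremes, NewGene_3749 had 145 of its 147 counts in LPS replicate 2, and NewGene_1232 had 51 of its 57 counts in untreated replicate 2. Neither passed the filter, so neither was tested. The steadiest locus of at least 10 CPM, NewGene_1776, read 161 to 187 CPM over all 9 libraries, with an SD of 0.07 on the log2 scale. NewGene_1124, with the symbol Tmem134, was next at 63.7 to 75.6 CPM and 0.09. At NewGene_1124 the LPS libraries (71.1 to 75.6 CPM) lay just above the untreated ones (63.7 to 68.1 CPM; edgeR adjusted p = 0.18), while at NewGene_1776 all groups overlapped.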

How the data were processed

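The deposited table held, per the file headers, a count and an FPKM value per entry and library. The authors' counts were whole numbers. From the column names count and FPKM, the counts were taken as not normalized and FPKM as scaled per length and library depth. Per the submitters' processing notes the build was GRCm38. Aligner, assembler, counter and use of strand were not given in the sources used here, so overlapping and near-identical loci may share reads. RNA was extracted with TRIzol and libraries made with an mRNA kit, per the labels' protocols. Of 26770 entries with values, 22035 had Ensembl identifiers, and 10 lines of annotation text were left out.

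Counts were fitted with edgeR 4.0.16 in R 4.3.3, with filterByExpr by group (15447 entries kept) and TMM factors of 0.923 to 1.07. All 9 libraries entered 1 model with group means, tested by quasi-likelihood. Entries with a Benjamini-Hochberg adjusted p under 0.05 over all entries tested were called. CPM are on TMM-scaled totals. Unless another tool is named, adjusted p are edgeR's, and numbers given alone in parentheses after a symbol are log2 fold changes and adjusted p. Shares used exact permutation tests (scipy 1.17.1). Counting intervals and floors cover counting error only. DESeq2 1.42.0 and limma 3.58.1 (on log2 of FPKM + 0.1) were alternatives, as were filters, scalings and leaving out each library; the edgeR fit was checked on simulated data. The values of named loci in every fit, the shares called in every fit, and limits without each library were added after seeing the data.

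The loci, lists and tests were chosen with earlier results of these data known. Named loci were the 6 of highest CPM; per comparison the 2 largest rises and 2 largest falls among called loci with a mean of at least 1 CPM in the higher group whose groups did not overlap (where nothing was called, those of lowest p); the extremes of spread and length; and the first 10 with a symbol. The pairs of a locus and its namesake gene and the families of a shared symbol were chosen after their values were seen.

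At the loci, chi-square per degree of freedom between replicates was 27.0 to 127, above counting error alone; whether libraries share an animal or culture was not tested by this. The markers Trac, Ighm and Ighd were not analysed here. One pair of a locus and its namesake gene is not reported here.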

Additional observations from a re-analysis of the deposited data

How the results depend on the processing

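No setting reversed the direction of a difference in share or of the loci named as the largest changes of the 3 comparisons. Among other named loci, none called in LPS turned, while the uncalled NewGene_7589 turned to -0.15 without untreated replicate 3 and the uncalled NewGene_2364 ranged from -0.14 to 0.15 with each library left out and was 0.18 from FPKM. The uncalled NewGene_1122 turned to -0.28 with a replicate block and -0.02 from FPKM. The count of loci called in LPS against untreated, 437, was 180 to 562 with each library left out (180 without LPS replicate 1, 259 without LPS replicate 2, 221 without LPS replicate 3, 276 without untreated replicate 3) and within 1.5 times 437 in every other setting (600 with DESeq2, 585 from FPKM, 378 without a filter, 292 with the 6 libraries alone, 326 with a replicate block). For LPS with octanal against LPS, called by edgeR at 0, the count was 114 with DESeq2, 77 with the 6 libraries alone, 19 without a filter, 5 with a filter of 1 CPM in 3 libraries, 0 with a replicate block and 0 to 37 with each library left out (27 and 1 without LPS with octanal replicates 1 and 2, 8 and 37 without untreated replicates 1 and 2). The counts of 114, 77, 19 and 5 were 9.74%, 4.31%, 0.839% and 0.441% of loci, against 12.1%, 9.27%, 1.29% and 0.507% of all entries. Those of 27, 1, 8 and 37 were 1.28%, 0.0473%, 0.380% and 1.75% of loci, against 3.68%, 0.0189%, 0.691% and 3.33% of all entries. For LPS with octanal against untreated, 87 became 234 with DESeq2, 34 with the 6 libraries alone, 58 with a replicate block and 22 to 177 with each library left out. The cause of these shifts was not tested, beyond the fewer libraries of some fits.

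The difference in share between LPS and untreated, 1.59 points, was 0.716 without the first locus, 0.252 without the first 10, 0.872 from FPKM and 1.22 to 1.80 with each library left out. Between LPS with octanal and LPS, -1.19 became -0.341, -0.0824 and -0.703 in the same order, and -1.40 to -0.820 with each library left out. The FPKM scale moved the median log2 fold change of all entries by 0.11 in LPS against untreated and by -0.10 in LPS with octanal against LPS. Over all entries tested, same-numbered libraries correlated in their deviations from the group means by -0.08 to 0.16, and 1 of 9 pairs exceeded 0.1. Of 18 comparisons of a library with another group, 3 correlated best with the own replicate number. At the loci of 10 CPM or more, same-numbered pairs gave -0.28 to 0.53 and the other pairs -0.54 to 0.53. The highest same-numbered value was that of LPS and LPS with octanal replicates 1. Deviations from means of 3 libraries cannot decide whether the replicate numbers pair the libraries. Depth limits the loci under 1 CPM, for which a group can hold fewer than 100 counts.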
